A study of Mus musculus with 3 samples.

Results

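LSK cells of mice that lack both p53 and Mef, labelled DKO, were compared with LSK cells of mice that lack p53 alone, labelled p53 KO, so both sides of the comparison were p53 -/- and differed in the Mef -/- alleles. Total RNA of each genotype was hybridised to 1 Affymetrix expression array. These 2 arrays are part of a set of 3, and the remaining array, of wild-type LSK cells (WT), is given only for context. The members of the comparison were all genes that the array names by a probe set (a group of short probes read together) of a single gene. The brightest such probe set stood for its gene. Of 18194 genes named this way, 12408 were measured, which means that their signal reached a floor of 110, the median of all signals, on the DKO array, the p53 KO array or both. Each difference is the log2 of the DKO signal minus the log2 of the p53 KO signal, with signals under the floor raised to it. A difference of 1 is therefore 2-fold, and where 1 array lies under the floor the true difference may be larger ("at least", or "at or below" for negative values). Age, sex, tissue, number of mice, pooling and the p53 and Mef alleles were not given in the sources used here.

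Mef, whose gene is Elf4, is a transcription factor of the ETS family, which binds DNA at a GGAA core and includes several regulators of blood cells. Loss of Mef is known to leave more blood stem cells out of the cell cycle, and p53, a transcription factor that answers DNA damage and other stress, is known to help hold these cells quiescent. LSK is the usual name for cells without the surface markers of mature lineages but with Sca-1 and Kit. They hold the blood stem cells and the multipotent progenitors that give rise to the myeloid, erythroid and lymphoid lineages.

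With 1 array a genotype there was no replicate check, so no test was made and no difference below has an error between mice. The repeated measure in these data is further probe sets of the same gene on the same 2 arrays. Across 5388 genes with such a probe set, the robust SD between the differences of their probe sets was 0.50 on the log2 scale. The share of probe sets at or over the floor was 53.8% in DKO, 48.9% in p53 KO and 47.3% in WT cells, although the trimmed mean signal was the same on all 3 arrays. The 3' to 5' signal ratio, a sign of RNA length, was 9.19, 6.20 and 8.29 for beta-actin and 5.90, 6.61 and 5.85 for Gapdh in the same order, and its part in the results was not tested. The arrays came from bulk RNA, in which fewer cells of a type and less RNA per cell cannot be told apart.

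Elf4 had a signal of 151 in DKO, 182 in p53 KO and 57.4 in WT cells, and its further probe set had 129, 173 and 74.3. These signals lie close to the floor on all 3 arrays, and where its probes lie relative to the deleted part is not given here, so the transcript did not check the label. The p53 transcript was not analysed here. Kit, the stem cell factor receptor by which LSK cells are sorted, had signals of 4873, 2522 and 4996 on the DKO, p53 KO and WT arrays, so that the p53 KO array was the low one. Ptprc, which encodes the leukocyte antigen CD45, had 9072, 13914 and 6925. Sca-1 (Ly6a) was not analysed here. The chosen markers of T and NK cells, Cd3e, Cd3g and Ncr1, were under the floor on every array, with signals from 9.31 to 69.4. Other genes of these cells were not: Klrd1, an NK receptor, had 333, 540 and 171, and of the 16 measured members of each list, 12 T cell and 15 NK genes reached the floor on the p53 KO array.

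**Figure D1:**
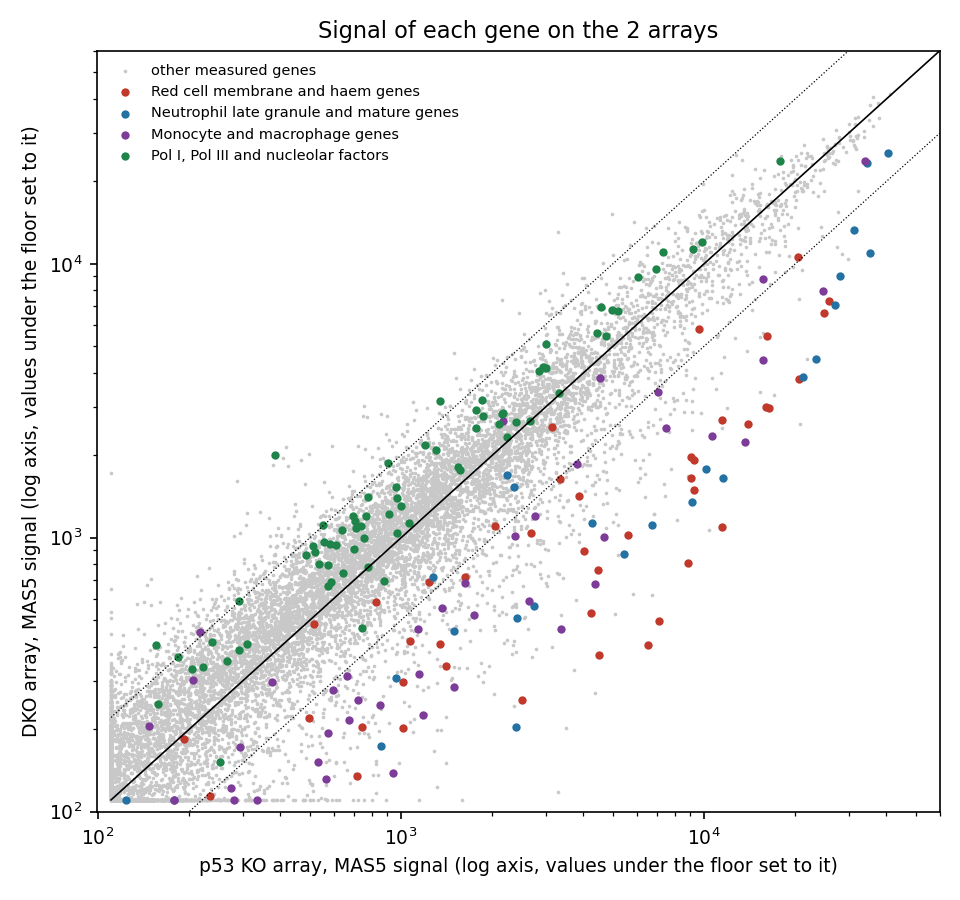
Signal of each measured gene on the p53 KO array (horizontal, log axis) and the DKO array (vertical, log axis), 1 point a gene, with the line of equal signal and dotted lines at 2-fold. Genes of red cells and mature neutrophils and 38 of 42 monocyte genes lie under the diagonal, most of them beyond 2-fold. Of the nucleolar and RNA polymerase I and III genes 70 of 74 lie over it.

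A 2-fold higher signal in DKO than in p53 KO cells, or more, was found for 517 genes (4.17% of those measured), and a signal lower by as much for 747 (6.02%). Beyond 4-fold the split was 17 higher and 175 lower. The median difference over all genes was 0.12, with the middle 50 percent of genes from -0.23 to 0.44, and 7408 genes were higher against 5000 lower. Scaling moved this balance: 40.9% of the genes beyond 2-fold were higher with the signals as deposited, 32.7% after quantile normalization, 26.5% after cyclic loess and 13.5% when the arrays were set to equal medians, which shifted the median of all genes to -0.15. Small differences of a gene family are therefore better read against 0.12, the median of all genes, than against 0. This reference is approximate, because the median fell with signal. It was 0.19 for genes whose brighter array lay between the floor and the 75th percentile. It was 0.13 for the next brighter group and -0.01 for the brightest genes. Of the 346 lower genes with a further measured probe set, 295 had it lower too, 157 of them by 2-fold or more, and 3 had it at least 2-fold higher. Of the 212 higher genes with one, 182 had it higher too, 37 of them by 2-fold or more, and 0 had it at least 2-fold lower.

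The lowest genes included many products of mature blood cells. Ppbp, a platelet chemokine, had signals of 118 in DKO, 3292 in p53 KO and 158 in WT cells, the order used for signals throughout, and a difference of -4.81. The p53 KO array was the single high one for this gene. Prg2, the major basic protein of eosinophil granules, had 272, 4383 and 1223, a difference of -4.01. Epx, the eosinophil peroxidase, had 101 on the DKO array, under the floor, against 1590 and 413, and was at least 14.4-fold lower. Both were highest on the p53 KO array. In the list of mast cell, basophil and eosinophil genes 4 of 20 measured members were lower by 2-fold or more and 2 higher by as much, and the median of 0.09 became negative under equal medians. Cpa3, a mast cell carboxypeptidase, was the highest of them, with signals of 2020, 497 and 613.

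Epb42, Rhd, Kel and Trim10 of the red cell, Lrg1 of the neutrophil, and the apolipoprotein L genes Apol8 and Apol11b were also among the 15 lowest, with differences from -4.11 to -3.46. The other members of the 15 were Hagh, a glyoxalase, at -3.45, Mgll, a lipase of monoacylglycerols, at -3.42, Alas2 at -3.39, Abca13 at or below -3.37 and Dmtn at -3.29. Hagh was supported by its other probe sets, at -2.16 and -1.95, whereas Mgll ranged up to -0.73 among its own.

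The highest gene was Prm1, the protamine that packs DNA in sperm. Its signal was 1718 on the DKO array against 2.29 for p53 KO and 3.48 for WT, at least 15.6-fold higher than in p53 KO cells. Its other probe sets were higher by 1.59 and by at least 3.94 on the log2 scale. All of its probe sets are of a type that may be shared with other transcripts. Pdgfrb, a receptor of platelet-derived growth factor, had signals of 2136, 417 and 558, a difference of 2.36. Rgs1, which dampens G protein signalling, had 1959, 407 and 544, a difference of 2.27. For these 3 genes the DKO array was the single high one. Ccnb1ip1, Nrip2, Polr3k, Car3, Cldn34c1, Slc25a17, Ddx4, Lce1h, Gpsm1, Nlrc3, Abcb1b and Sirt2 filled the rest of the 15 highest, from at least 2.55 down to 2.03. In Car3, Nlrc3 and Abcb1b another probe set went the other way, at -0.67, at or below -0.25, and at -0.32.

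Probe sets of a gene gave the same answer most firmly in 36 genes, where at least 3 measured probe sets were all beyond 2-fold one way. Of these, 6 were higher on the DKO array: Arhgap6, Bcl2, Dntt, Pank1, Pdk1 and Prm1. The number of genes with at least 3 measured probe sets was not counted, so this split has no reference. Among the brightest genes 311 were at least 2-fold lower and 78 higher. Among genes between the floor and the 75th percentile 131 were lower and 238 higher. Whether the need for 3 measured probe sets favours bright genes was not tested. Mkrn1, a ubiquitin ligase, was lower in all 6 of its probe sets, from -2.67 to -1.47. Igha, the heavy chain of immunoglobulin A, had signals of 2605, 20780 and 10068 and was lower by -3.18 to -3.00 in its 3 probe sets. Bpgm, which makes the red cell metabolite 2,3-bisphosphoglycerate, had 1775, 7756 and 2149, with differences from -2.13 to -2.01.

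**Figure D2:**
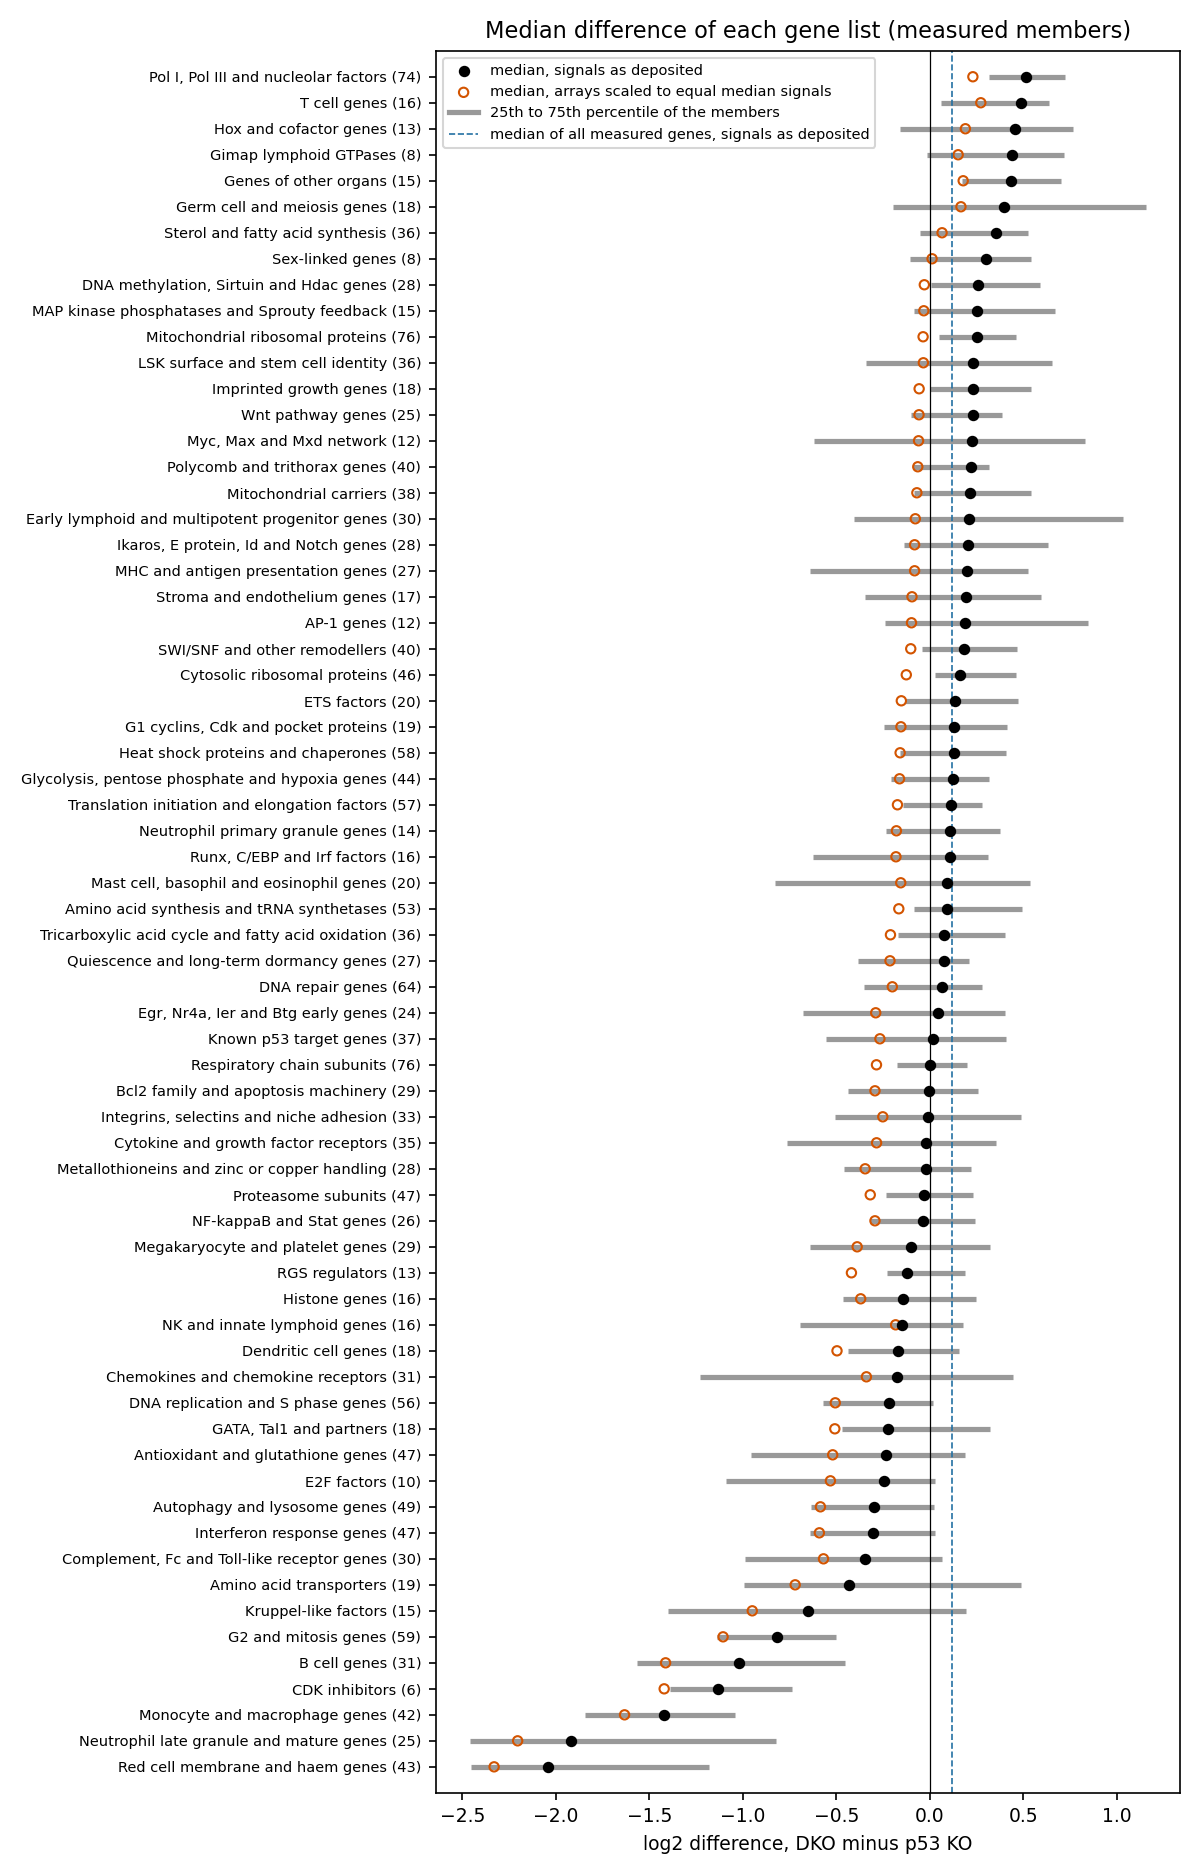
Median log2 difference of 66 gene lists (black points, number of measured members in brackets) with the middle 50 percent of members (grey bars), and the same median after the arrays were scaled to equal median signals (open circles). The dashed line is the median of all measured genes, 0.12. Red cell, late neutrophil, monocyte, CDK inhibitor, B cell and G2/M lists lie lowest under both scalings, and lists with small positive medians turn negative under equal medians.

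Red cell genes formed the lowest list. All 43 measured members were lower on the DKO array, 35 of them by 2-fold or more (81.4%). The median was -2.04 against 0.12 for all genes, and it lay between -2.33 and -2.04 under the scalings. The summed signal of the list was 77331, 299168 and 218503. Klf1, the Kruppel-like factor that drives the red cell program, had 1972, 9033 and 12847, so that the DKO array was low against both others. Its partner Gata1 had 1422, 3855 and 4923 in the same order. Epor, the erythropoietin receptor, had 420, 1068 and 1345. These regulators and receptor were about as bright on the WT array as on the p53 KO array, or brighter, and low on the DKO array.

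Later products of the red cell program showed a different order. Alas2, which starts haem synthesis in red cells, had 1091, 11459 and 1787, a 10.5-fold difference, with the WT array near the DKO array. Fech, which inserts iron into haem, had 3811, 20598 and 9210. Slc25a37, the mitochondrial iron importer mitoferrin, had 2592, 14017 and 3264. Membrane proteins followed: Epb42, a protein of the membrane skeleton, had 408, 6526 and 1199. Rhd of the Rh blood group had 495, 7095 and 2606, and Kel of the Kell group had 373, 4494 and 2034. Slc4a1, the anion exchanger band 3, had 6613, 24942 and 12659, and Hemgn, a red cell nuclear protein, 7321, 25928 and 15617. The DKO array was the lowest of the 3 for 42 of 43 members, and the p53 KO array the highest for 28. Measured against the WT array the list had a median of -1.44 on the DKO array and 0.55 on the p53 KO array. Both of these rest on the same WT array. Hba-a2, an alpha globin, was the exception in size at -0.07, with signals of 184, 192 and 191, near the floor. Hba-a1, another alpha globin, was under the floor on all 3 arrays, with 76.9, 69.8 and 38.1. Hbb-b2, a beta globin, was at -2.09, but its other probe set was higher by at least 0.50.

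Red cell promoters often carry sites for the GATA factors and for Klf1. Promoters were taken from RefSeq (GRCm38.p6), 250 bases before to 50 bases after each annotated start, and searched on both strands for the letters AGATAA, a common GATA site, and separately for the letters CCACCC, a common Klf1 site; these motifs share no overlap with each other in the sequences shown. Of the 33 measured list members with a promoter in the table, 11 held the GATA letters, 33.3%, against 8.21% of 10070 measured genes and 12.7% of all 27025 genes in the table. The CCACCC letters were in 57.6% of the list, 41.0% of measured genes and 9201 of the 27025 genes of the table. A match is a description of letters, not of binding. The 120 bases before the start are shown for Rhd (chr4:134864416-134864535, plus strand) and Kel (chr6:41704326-41704445, minus strand), the members with the largest differences that hold the GATA letters there, with both motifs in capitals.
Rhd: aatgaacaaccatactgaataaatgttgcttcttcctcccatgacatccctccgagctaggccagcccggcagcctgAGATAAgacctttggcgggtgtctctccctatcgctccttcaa
Kel: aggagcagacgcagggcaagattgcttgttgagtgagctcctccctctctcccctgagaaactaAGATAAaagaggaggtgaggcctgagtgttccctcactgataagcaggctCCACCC

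Neutrophil genes split by stage. Primary granule proteins are made early, in promyelocytes, and secondary and tertiary granule proteins later. Mpo, the myeloperoxidase of primary granules, had signals of 27120, 27108 and 14665. Elane, the neutrophil elastase, had 2308, 1719 and 800. In the primary granule list 2 of 14 members were at least 2-fold lower, Hp and Igsf6, none was 2-fold higher, and the median was 0.11, near that of all genes and negative under equal medians. Hp encodes haptoglobin and Igsf6 a receptor of myeloid cells, and both lie outside the primary granule enzymes that make up most of the list.

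The late granule and mature neutrophil list went the other way: all 25 members were lower on the DKO array, 18 at least 2-fold, with a median of -1.92. Ltf, lactoferrin, had 3861, 21251 and 8630. Camp, a cathelicidin peptide, had 4509, 23481 and 10292. The DKO array was under the WT array for both, and the p53 KO array was over it. Cd177, a surface protein of neutrophils, had 1347, 9104 and 1896, and Lrg1 had 203, 2397 and 288, an 11.8-fold difference. Some members did not reach 2-fold, among them S100a8 with 25471, 40616 and 32242 and Ngp with 23406, 34514 and 29306. The p53 KO array was the highest of the 3 for all 25 members and the DKO array the lowest for 21. The summed signal of the list was 111679, 305915 and 161682.

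Monocyte and macrophage genes were lower in 38 of 42 members, 32 of them at least 2-fold, with a median of -1.42. Ccr2, the receptor that draws monocytes from the marrow, had 465, 3365 and 735, although its other probe sets ran from -1.11 to 0.91. Cybb, the catalytic subunit of the phagocyte oxidase, had 2241, 13651 and 3753 and was lower by -2.61 to -1.99 in its 3 probe sets. The lectins Clec4a2 and Clec4a3 had 678, 4361 and 1065, and 138, 940 and 122. Lyz2, lysozyme, had 7946, 24628 and 12984. For each of these genes the p53 KO array was the highest, and the DKO array was under the WT array for all but Clec4a3. Csf1r, the receptor that drives the lineage, differed less, with 8826, 15695 and 4841. Ccl3, a chemokine, was the 1 member at least 2-fold higher, at 1.07. Against the WT array the list had a median of -0.13 on the DKO array and 1.37 on the p53 KO array.

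B cell genes were lower in 27 of 31 members, 19 at least 2-fold, with a median of -1.02. The lower members included genes of antibody-secreting cells and of early B cells: Jchain, which joins antibody chains, had 1342, 4768 and 2377, and Pou2af1, a coactivator of antibody genes, had 341, 1953 and 449. Fcrla was at -2.63 and Ighg3 at least 6.31-fold lower. Ighm, the heavy chain of immunoglobulin M, had 15066, 13095 and 12718 and did not reach 2-fold. Cd79a, part of the B cell receptor, had 293, 383 and 156. Pax5, the factor that sets B cell identity, was near the floor on all 3 arrays, from 142 to 167.

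**Figure D3:**
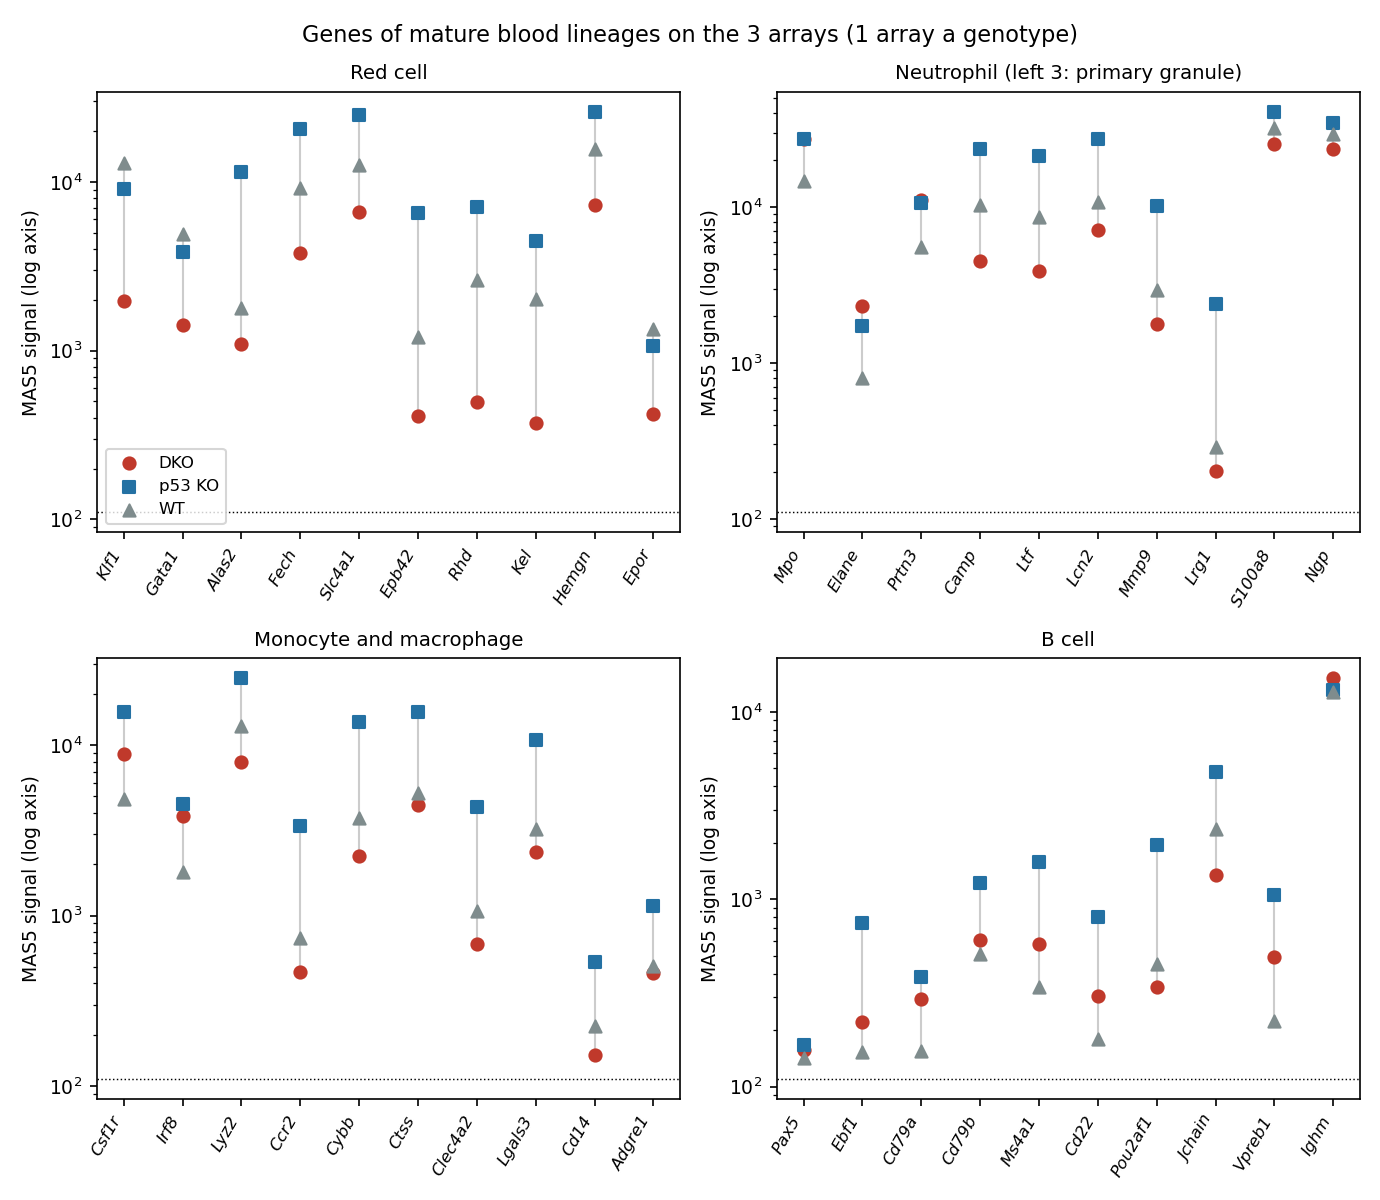
MAS5 signals (log axis) of selected members of the red cell, neutrophil, monocyte and B cell lists on the DKO, p53 KO and WT arrays, 1 array each, with the floor dotted. The p53 KO array is highest for most mature genes, the DKO array is lowest for the red cell genes, and Mpo and Prtn3 have nearly the same signal on the DKO and p53 KO arrays.

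Other lineages differed less as groups. The megakaryocyte and platelet list had 5 of 29 members at least 2-fold lower and 1 at least 2-fold higher, and its median was -0.10. Pf4, a platelet chemokine of the same family as Ppbp, had signals of 3365, 5234 and 1925, and Itga2b, the platelet integrin that stem cells also carry, had 2366, 1975 and 1215. Neither of these markers of the lineage reached 2-fold. Clec1b and Tubb1, genes of mature platelets, were at or below -1.76 and at -1.57. The dendritic cell list had a median of -0.17, with Irf4 at or below -1.63. T cell genes had a median of 0.49 that stayed positive under each scaling, from 0.27 to 0.35, with most signals near the floor. Of the 16 measured T cell genes, 14 reached the floor on the DKO array and 12 on the p53 KO array. Bcl11b, the factor that commits T cells, had signals of 350, 119 and 40.8. Cd8a was under the floor on the DKO array alone, at or below -1.36, and Cd3d on the DKO and WT arrays. NK genes had a median of -0.15, with Ccl5 at or below -2.47 and Gzma at -1.56. Of the 16 measured NK genes, 10 reached the floor on the DKO array and 15 on the p53 KO array. Members measured on 1 array alone had to be higher there, so the T cell and NK medians are in part set by that filter. The stroma and endothelium list had 3 of 17 members higher by 2-fold, 2 lower, and a median of 0.19 that was negative under all 3 scalings. Nes, an intermediate filament of niche cells, had signals of 379, 118 and 420, and Fn1, fibronectin, was at -1.80.

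Members of the stem and progenitor lists lay on both sides. In the list of LSK surface and stem cell identity 5 of 36 members were higher by 2-fold or more and 3 lower by as much, and the median of 0.23 turned to -0.034 under equal medians. Flt3, the receptor that marks multipotent progenitors within LSK cells, had signals of 4728, 1492 and 2387, a 3.17-fold difference. Cd34, which long-term stem cells of the mouse lack and progenitors carry, had 6633, 2442 and 2230, a 2.72-fold difference. The DKO array was the high one for both. Hoxa9, a homeobox factor of stem cell self-renewal, had 11734, 5711 and 6973, and its cofactor Meis1 had 4505, 2373 and 2169. The further probe set of Hoxa9 was at 1.18, and those of Meis1 at 1.08 and 1.26.

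The members that were lower were Cd82 at -1.68, Pdzk1ip1 at -1.45 and Trim47 at -1.29. Cd82, a tetraspanin of dormant stem cells, had signals of 804, 2580 and 1384, and Pdzk1ip1 had 1485, 4047 and 1745. Other members used to mark long-term stem cells did not reach 2-fold: Procr, the endothelial protein C receptor, was at -0.41, Mecom at -0.31 and Slamf1 at 0.08. In the quiescence list 3 of 27 members were beyond 2-fold each way, and its median of 0.07 became -0.21 under equal medians. The list of Hox genes and cofactors had a median of 0.46 that stayed positive under each scaling. Hoxa5 was at 0.99 while Pbx3 was at -0.99.

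Early lymphoid and multipotent progenitor genes had the largest share of higher members, 9 of 30 or 30.0% by 2-fold or more, against 4.17% of all genes, and 4 members were lower by as much. The median of 0.21 was negative under equal medians. Ctla2a, a cathepsin inhibitor of progenitors, had signals of 13093, 3298 and 3143, a 3.97-fold difference. Dntt, the terminal transferase that adds bases to rearranging antigen receptor genes, had 15238, 4980 and 1996 and was higher by 1.23 to 1.94 in its 3 probe sets. Sox4 had 10052, 4630 and 4804, and Satb1, a chromatin organiser of lymphoid progenitors, 3926, 1913 and 1688. The p53 KO array lay near the WT array for Ctla2a, Sox4 and Satb1, while for Dntt it lay between the others. Flt3, Mn1, Ctla2b, Ramp1 and Cd27 were the other members higher by 2-fold. Blnk, Vpreb1, Igll1 and Cd52, genes of the B lineage and of mature leukocytes, were lower, with differences from -1.68 to -1.02. Blnk, for example, had 476, 1523 and 348.

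**Figure D4:**
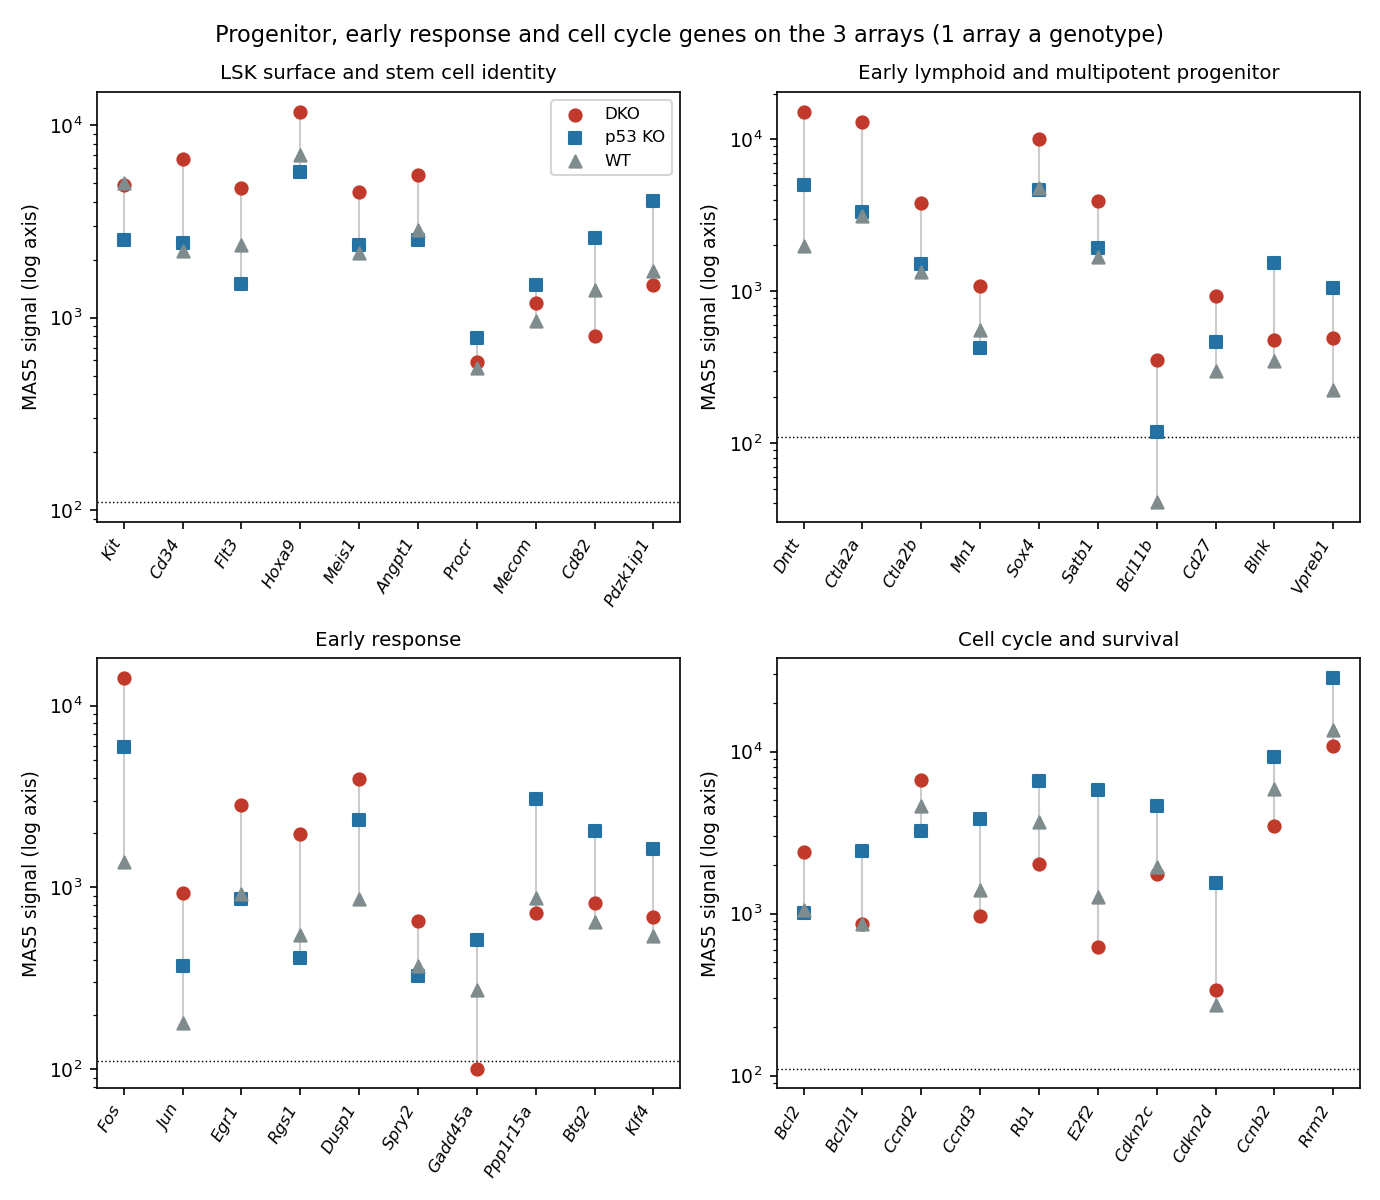
MAS5 signals (log axis) of selected stem cell, lymphoid progenitor, early response and cell cycle genes on the DKO, p53 KO and WT arrays, 1 array each, with the floor dotted. Flt3, Cd34, Dntt and Ctla2a are highest on the DKO array, the early response genes part into 2 directions, and E2f2, Rb1 and the CDK inhibitors Cdkn2c and Cdkn2d are highest on the p53 KO array.

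Growth factor receptors were split as well, 4 of 35 at least 2-fold higher and 5 lower by as much, with a median of -0.02. Besides Flt3 and Pdgfrb, Il1r1 and Acvr1b were higher, at 1.18 and 1.06. Il6st, the gp130 subunit of the interleukin 6 receptor, had signals of 848, 2279 and 849, a difference of -1.43, but its other probe set was at 0.36. Chemokines and their receptors had 8 of 31 members at least 2-fold lower, among them Ackr1 at -2.34, Cxcr2 at -2.30 and Ccr1 at -1.99, and 2 at least 2-fold higher. Among adhesion genes Itgb2, the beta chain of leukocyte integrins, had 1684, 8853 and 2811, a difference of -2.39. Vcam1, which holds progenitors in the marrow, had 713, 2890 and 566. Itga4, the other side of that bond, was at 0.16, and Cd44 and Cd47 at -0.07 and -0.19, although a further probe set of Itga4 was at -2.01.

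Immediate early genes, which answer growth signals and stress within minutes, parted into those higher and those lower on the DKO array. Fos had signals of 14202, 5890 and 1384, a 2.41-fold difference, and Jun had 930, 369 and 180, with 2.63 in its other probe set. Both followed the order DKO, p53 KO, WT. Egr1 had 2830, 860 and 925, a 3.29-fold difference, with the DKO array as the single high one. Of the phosphatases and inhibitors that such signals induce, 2 of 15 were higher by 2-fold, Dusp5 at 1.26 and Spry2 at 1.01, and none lower by as much. In all 10 were higher and 5 lower, from Dusp2 at 0.83 to Dusp8 at or below -0.78 among the members under 2-fold, with a median of 0.25 that turned to -0.032 under equal medians.

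Against these, Gadd45a, a stress gene, had 101, 514 and 272 and was at or below -2.22. Ppp1r15a, the phosphatase subunit that ends a translation block, had 723, 3066 and 871, a difference of -2.09. Gadd45g was at -1.55 and Btg2, which slows proliferation, at -1.33. The DKO and WT arrays were close for Ppp1r15a, Gadd45g and Btg2, with the p53 KO array high. AP-1 partners also parted: Maf at -1.54 and Fosl2 at -1.13 were lower, although another probe set of Fosl2 was higher by at least 0.32. The AP-1 list had a median of 0.19 and the list of Egr, Nr4a, Ier and Btg genes 0.05, and both became negative under equal medians. Kruppel-like factors were lower by 2-fold or more in 6 of 15 members, with a median of -0.65. Besides Klf1 these were Klf5 at -2.01, Klf3 at -1.77, Klf7 at -1.40, Klf6 at -1.39 and Klf4, a factor of monocytes, at -1.24. In Klf3 and Klf6 another probe set went the other way, and Klf16 was at 1.54.

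Among transcription factors of blood lineages, the ETS family to which Mef belongs stayed near the level of all genes, with 1 of 20 members higher by 2-fold, 2 lower by 2-fold and a median of 0.13 that was negative under equal medians. Ets1 had signals of 501, 1368 and 470 and Spib, a B cell and dendritic cell factor, 384, 1043 and 283, both high on the p53 KO array alone. Etv2 was at 1.12, Erg at 0.64, Fli1 at 0.46 and Spi1, which encodes PU.1, at 0.44. Within the GATA and Tal1 list Zfpm1, the Gata1 partner, was at -1.02 and Mafg at -1.03, while Gata2, the stem cell member of the family, was at 0.64, with Tal1 at -0.51 and Lmo2 at 0.25. Cebpd and Cebpb, factors of maturing myeloid cells, were at -1.65 and -1.56, whereas Cebpa, which acts earlier in the same line, was at 0.24 and Runx1 at 0.21. Id2, an inhibitor of E proteins, was at -1.52 with another probe set at or below -0.02, and the Notch ligand Jag2 was at least 3.17-fold higher. Ikzf3, an Ikaros factor of mature lymphocytes, was at -1.43, and Ikzf2, which acts in stem cells, at 0.93. NF-kappaB and Stat genes had none of 26 members beyond 2-fold and a median of -0.04. Gimap genes, GTPases of lymphoid cells, had none of 8 beyond 2-fold and a median of 0.44 that stayed positive under each scaling. Further probe sets did pass 2-fold, higher by at least 2.04 for Gimap6 and at or below -1.32 for Gimap4. Wnt pathway genes had 1 of 25 beyond 2-fold, Wnt7a at -1.60, and a median of 0.23 that was negative under all 3 scalings.

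Genes of cell division were lower on the DKO array. In the G2 and mitosis list 56 of 59 members were lower and 19 at least 2-fold, 32.2%, with a median of -0.82, and the median stayed between -1.11 and -0.78 under the scalings. Ccnf, a cyclin of G2 phase, had signals of 544, 2021 and 1173, a difference of -1.89. Ube2c, which feeds the anaphase-promoting complex, had 788, 2739 and 1589, and Ccnb2, a mitotic cyclin, 3491, 9219 and 5889. The WT array lay between for each of them. Mki67, the proliferation antigen Ki-67, had 13655, 24396 and 17134. The DKO array was the lowest of the 3 for 49 of the 59 members and the p53 KO array the highest for 51. Foxm1, a driver of this gene set, was at 0.31, with its other probe sets at or below -1.16 and at -0.68.

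DNA replication genes were lower by less, 41 of 56 lower and 6 at least 2-fold, with a median of -0.22. Rrm2, the subunit of ribonucleotide reductase made in S phase, had 10852, 28502 and 13534 and was at -2.14 to -1.39 in its 3 probe sets. Ccne1, the cyclin of S phase entry, had 1923, 5934 and 7112, and Gmnn, which blocks relicensing of origins, 5601, 15701 and 12131. The Mcm helicase subunits did not reach 2-fold; Mcm7, for example, had 23840, 27664 and 26129. E2f2, an activator of S phase genes that red cell precursors use, had 624, 5809 and 1270, a 9.30-fold difference, with its other probe set at -2.53. E2f8 was at -1.24 and E2f1 at 0.04.

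Inhibitors of the cycle were lower too. Cdkn2d, which encodes p19-INK4d, had 336, 1551 and 275, and Cdkn2c, p18-INK4c, had 1751, 4643 and 1950. Cdkn3 was at -1.34, Cdkn1c at -0.93 and Cdkn1b at -0.67, and Cdkn1a, the classic p53 target p21, had 648, 569 and 291, a difference of 0.19 between cells that both lack p53. The retinoblastoma gene Rb1 had 2030, 6600 and 3657, a difference of -1.70. The D cyclins, which start the cycle, went in opposite directions: Ccnd3 had 966, 3858 and 1400, and Ccnd2 had 6694, 3254 and 4634, a difference of 1.04. Other probe sets of Ccnd3 ran from -0.37 to 0.53, whereas those of Ccnd2 ran from 0.64 to at least 1.68. Mxd1, a Myc antagonist that rises in maturing cells, had 1009, 3508 and 646, and Mxd3 and Mxi1 were at -1.37 and -1.06, while Myc itself had 3137, 1624 and 3532.

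Promoters of G2/M genes are known for a CHR element and for CCAAT boxes. In the same promoter windows, on both strands, TTTGAA, the CHR letters, were in 35 of 49 list members, 71.4%, against 14.6% of measured genes and 20.2% of all. The letters of the CCAAT box, on both strands, were in 77.6% of the list, 42.4% of measured genes and 41.1% of all. Both motifs are in capitals in the 120 bases before the starts of Ccnf (chr17:24251410-24251529, minus strand) and Ube2c (chr2:164769809-164769928, plus strand), the list members with the largest differences. The motifs do not overlap in these sequences, and those of the reverse strand appear as their reverse complement.
Ccnf: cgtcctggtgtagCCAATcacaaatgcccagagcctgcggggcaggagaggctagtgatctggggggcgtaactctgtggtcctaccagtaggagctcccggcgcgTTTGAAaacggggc
Ube2c: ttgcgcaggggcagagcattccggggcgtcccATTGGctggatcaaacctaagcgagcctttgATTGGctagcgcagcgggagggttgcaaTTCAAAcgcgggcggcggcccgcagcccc

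Bcl2 and Bcl2l1, survival genes of the Bcl2 family, also went in opposite directions. Bcl2, which keeps cells alive by holding the mitochondrial death pathway shut, had signals of 2394, 1011 and 1052 and was higher by 1.24 to 2.20 in all 5 probe sets. Bcl2l1, which encodes Bcl-xL, the survival factor of late red cell precursors, had 858, 2432 and 862, a difference of -1.50, with another probe set at or below -0.16. Mcl1, a further survival gene, differed less, with 13293, 15762 and 10483, a difference of -0.25. Its other probe sets ran from -0.98 to 0.07. The list as a whole had 1 member beyond 2-fold each way and a median of -0.01. Known p53 targets, which neither genotype can induce through p53, had 1 of 37 members higher by 2-fold, 3 lower by 2-fold and a median of 0.02 that was negative under equal medians. Ddit4, an inhibitor of mTOR signalling, was at 1.25, Sesn1 at 0.72 and Mdm2 at -0.57. DNA repair genes had 3 of 64 beyond 2-fold, Fancl, Fancm and Xrcc3, and a median of 0.06.

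**Figure D5:**
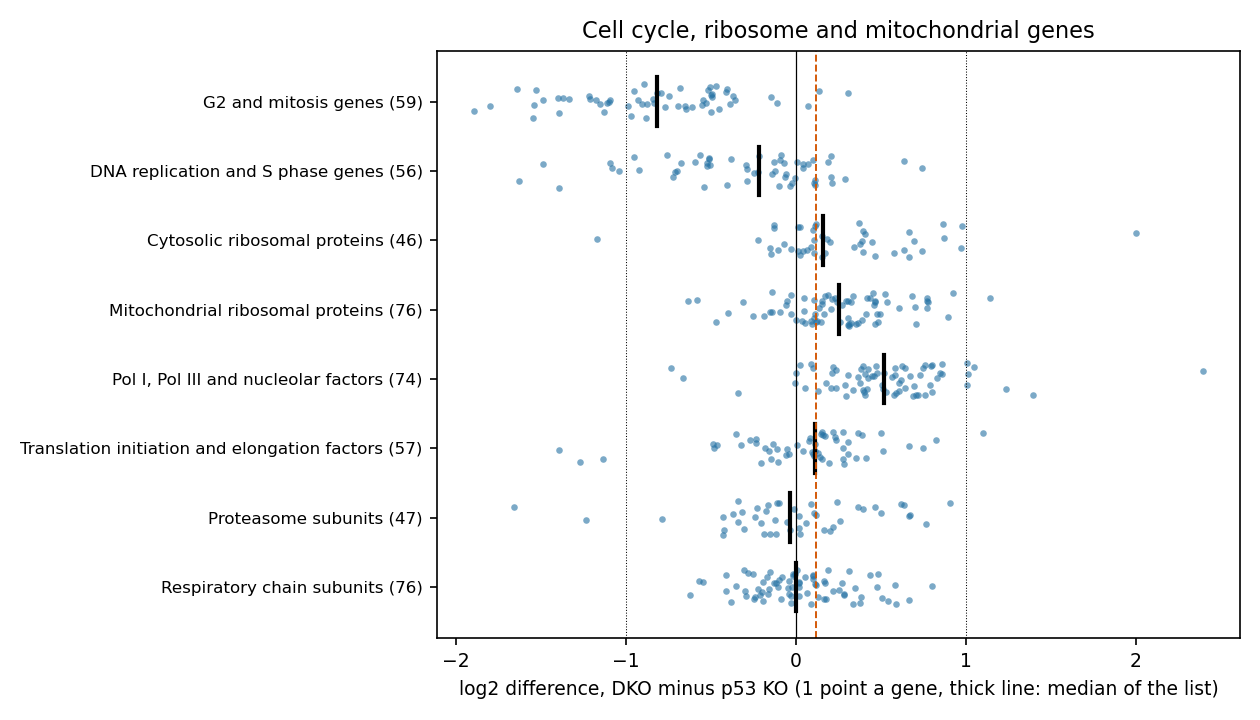
Log2 difference, DKO minus p53 KO, of each measured member of 8 gene lists (1 point a gene, spread vertically for legibility), with the median of each list as a thick line, 2-fold as dotted lines and the median of all genes, 0.12, as a dashed line. Most G2/M genes lie left of the zero line, most nucleolar and RNA polymerase I and III genes right of it, and respiratory chain subunits around it. Under equal medians the ribosomal and translation medians turn negative while the nucleolar median stays at 0.23.

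Genes of ribosome production were mostly higher on the DKO array. Of 74 factors of RNA polymerases I and III and of the nucleolus, which make and assemble ribosomal RNA, 70 were higher on the DKO array and 7 at least 2-fold, 9.46%, with none at least 2-fold lower. With the signals as deposited the median of 0.52 was the highest of the 66 lists, and it stayed positive under each scaling, from 0.23 to 0.54. Polr3k, a subunit of RNA polymerase III, had signals of 2013, 383 and 1572, with other probe sets from 0.33 to 1.25. Wdr43 and Rrp12, which process ribosomal RNA, had 3163, 1344 and 3129, and 407, 155 and 313. The p53 KO array was low and the DKO array nearer the WT array in these genes. Npm1, nucleophosmin, had 23834, 17777 and 27011. The p53 KO array was the lowest of the 3 for 69 of the 74. Against the WT array the list had a median of -0.41 on the DKO array and -0.90 on the p53 KO array, both resting on the same WT array.

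In the promoter windows of these genes the ETS letters CCGGAAGT, on both strands, were in 18 of 65, 27.7%, against 8.67% of measured genes and 4.31% of all genes of the table. They were in none of the 33 red cell promoters, in 2.94% of the monocyte list and in 12.2% of the G2 and mitosis list. They were in 4.61% of the promoters of genes lower by 2-fold and 5.90% of those higher by 2-fold, both under the share of all measured genes. Letters of 2 further motifs were also more frequent in the nucleolar list than in measured genes. These were the E-box, 23.1% against 11.6%, and the CRE, 6.15% against 3.33%. The other motifs searched were less frequent there. The ETS letters are those of the ETS family at large, and no binding was measured here. The 120 bases before the start of Surf6 (chr2:26902888-26903007, minus strand) and Ltv1 (chr10:13193138-13193257, minus strand), the members with the largest differences that hold them there, are shown with the ETS letters of both strands in capitals.
Surf6: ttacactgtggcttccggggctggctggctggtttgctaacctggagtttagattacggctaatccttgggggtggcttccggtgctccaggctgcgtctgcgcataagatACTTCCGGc
Ltv1: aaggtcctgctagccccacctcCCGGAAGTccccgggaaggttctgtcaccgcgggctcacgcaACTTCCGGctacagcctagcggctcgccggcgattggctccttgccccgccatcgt

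Surf6, a nucleolar protein, had signals of 934, 514 and 1113, and Ltv1, a factor of small subunit export, 865, 487 and 1025. Ribosomal proteins themselves shifted less. The cytosolic ones had 37 of 46 higher and a median of 0.16, and the mitochondrial ones 60 of 76 higher and a median of 0.25, and both medians were below 0 with equal medians. Rpl37 was the highest, with signals of 3017, 755 and 2480, and Rps29 was at 0.01. Translation factors had a median of 0.11, with Eif1a at 1.10 and Eif2ak1, the haem-regulated kinase of red cell precursors, at -1.39. Proteasome subunits had a median of -0.03, positive after quantile normalization, with Psme3 at -1.66, and chaperones 0.13, with Dnajb2 at -1.71.

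Energy metabolism was nearly level. None of the 76 respiratory chain subunits was beyond 2-fold, 38 were higher and 38 lower, and their median was at 0, or -0.29 under equal medians. None of the 36 genes of the tricarboxylic acid cycle and fatty acid oxidation was beyond 2-fold either. Within glycolysis and hypoxia genes 4 of 44 were at least 2-fold higher: Vegfa, Car9, Pdk1 and Mif. Pdk1, the kinase that turns pyruvate away from mitochondria, had signals of 9242, 3432 and 6212 and was higher in all 3 probe sets, from 1.06 to 1.43. Vegfa, at 1.63, had another probe set at or below -0.33. Slc16a1, a lactate transporter, was at -1.65.

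Among genes of amino acid synthesis and tRNA synthetases 4 of 53 were higher by 2-fold and 2 lower, with a median of 0.09 that was negative under equal medians. Phgdh and Psat1, enzymes of serine synthesis, had 8032, 2976 and 5616, and 7810, 2867 and 4694, differences of 1.43 and 1.45. Their other probe sets did not reach 2-fold, from 0.46 to 0.66 for Phgdh and at 0.70 for Psat1. Asns, the asparagine synthetase, was at -1.18 with 1363, 3082 and 7258. Amino acid transporters were lower by 2-fold or more in 5 of 19 members, with a median of -0.43, led by Slc38a5 at -2.32 and Slc6a9, the glycine transporter that feeds haem synthesis, at -1.84. Slc25a38 and Slc25a51, mitochondrial carriers, were at -1.30 and -1.02, and Slc25a17 of peroxisomes was at 2.25. Antioxidant genes were at least 2-fold lower in 10 of 47 members, 21.3%, with a median of -0.24. They included Blvrb at -2.55, which red cells use to reduce biliverdin, Hmox1 at or below -1.82, Mgst1 at -1.39 and the glutathione enzymes Gclm and Gclc at -1.20 and -1.14. Sterol and fatty acid genes had 26 of 36 higher and a median of 0.35 that stayed positive under each scaling, with signals of 3352, 1680 and 2255 for Idi1, and Scd1 at -1.30.

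Genes of innate immunity and of the lysosome were lower in groups. Lysosome and autophagy genes had 35 of 49 lower and 7 at least 2-fold, with a median of -0.30: Ctss and Ctsb, cathepsins of phagocytes, were at -1.81 and -1.66, and Ctsb was lower in all 5 of its probe sets. Interferon response genes had 35 of 47 lower and 8 at least 2-fold, with a median of -0.30. Rsad2, the antiviral protein viperin, had signals of 3308, 17019 and 3855 and was lower by -3.14 to -2.06 in its 3 probe sets. Isg20 and Irgm2 were at -2.22 and -2.20, but Ifit1 was at -0.16 and Irf1 at 0.26. Complement, Fc and Toll-like receptor genes were at least 2-fold lower in 8 of 30, with Tlr13 at -2.27 and Cd14 at -1.82. Class II genes Cd74 and H2-Ab1 were at -1.15 and -0.92, while the class I genes B2m and H2-D1 were at 0.23 and -0.16. Other probe sets of H2-D1 disagreed in sign, from -0.35 to at least 1.41.

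These families differed on the same arrays as the markers of monocytes, neutrophils and red cells given above. The summed signals of the late neutrophil, monocyte and B cell lists were highest on the p53 KO array (305915, 177841 and 74378) and lower on the DKO array (111679, 75427 and 45423), and 23 of 25, 39 of 42 and 29 of 31 members still reached the floor there. The part of such cells in the differences of lysosome, interferon and cell division genes was not tested.

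None of 40 Polycomb and trithorax genes was beyond 2-fold. Of DNA methylation, sirtuin and Hdac genes 4 of 28 were higher by 2-fold, 14.3%, and 1 lower, and of SWI/SNF and other remodellers 3 of 40 higher, 7.50%, and 1 lower. Their medians of 0.26 and 0.18 were negative under equal medians. Dnmt3b, a DNA methyltransferase active in stem cells, had signals of 7053, 3469 and 4056, and Tet1 had 882, 439 and 476, differences of 1.02 and 1.01. Sirt2 had 580, 142 and 679, so that the p53 KO array was low against both others. Smarcc1, a core subunit of the SWI/SNF remodeller, was at 1.02 with other probe sets from -0.02 to 0.68. Chd7 was at or below -1.68, while its further probe set barely reached the floor on the p53 KO array alone and gives no comparison.

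Of 18 measured germ cell genes 5 were higher by 2-fold, 27.8%, and none lower by as much, with a median of 0.40. Of the 18, 15 reached the floor on the DKO array and 10 on the p53 KO array, so that members measured on the DKO array alone had to be higher, and the count and the median are in part set by that filter. Besides Prm1 these were Ccnb1ip1, a crossover factor, with 648, 10.8 and 2.51, Ddx4, a germ line helicase, with 671, 145 and 312, Msh5 with 811, 303 and 15.1, and Rec8, the meiotic cohesin, with 434, 182 and 1189. Prm1 and Ccnb1ip1 were above the floor on the DKO array alone, Msh5 on both p53-null arrays, and Rec8 was highest on the WT array. Most of the 45 listed genes were not measured. A list of genes of other organs, such as Ins2, Alb and Krt5, had no member beyond 2-fold in 15 measured, with a median of 0.43, and 14 of them reached the floor on the DKO array against 8 on the p53 KO array. Its sign turned when the floor was raised to the 75th percentile of all signals. The brightest probe set of Xist had signals of 423, 242 and 245. Its other probe sets were under the floor on every array, with 39.2, 24.7 and 17.4, and with 9.11, 21.8 and 7.57. The Y-linked Eif2s3y had 3658, 2564 and 2403 in its brightest probe set. Its other probe set was under the floor on every array, with 56.7, 31.4 and 12.4. The sex of the mice was not tested.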

How the data were processed

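Per the labels' protocols, total RNA was extracted with RNeasy and labelled with the Affymetrix one-cycle kit. The deposited values are array intensities on a linear scale, 1 column per array, and GCOS and MAS5 are named in the submitters' processing notes, with no versions. The columns share a trimmed mean with 2% left out at each end. Of 45101 probe sets, 34958 carried 1 gene symbol, 932 several and 9211 none in the platform annotation; symbols were updated by Entrez ID for 34754, and probe sets with several or no symbols were left out.

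Signals were floored at 110, the median of all signals, and each gene was read by its brightest probe set over the 3 arrays. Log2 differences were computed from the deposited intensities with Python 3.11.15 and pandas 2.3.3; quantile normalization and cyclic loess used limma 3.58.1 in R 4.3.3. The script was tested on simulated data. No p-value was computed, since 1 array a genotype limits the precision and allows no test. The 66 gene lists and the comparison were chosen with earlier results of these data known; 2 list entries that matched wrong genes were corrected afterwards. Genes named were the 15 highest and lowest with a signal of at least the 75th percentile, the 4 largest differences and 2 brightest further members of each list, markers of the sorted cells, and genes with at least 3 probe sets beyond 2-fold one way. Other members named or drawn were chosen after their values were seen. One gene is not reported here.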

Additional observations from a re-analysis of the deposited data

How the results depend on the processing

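No paired analysis was possible because each genotype has 1 array. The count of genes at least 2-fold higher (517) became 181 with equal medians, 317 with cyclic loess, 1553 with the floor at the 25th percentile, 159 with it at the 75th, and 2140 or 54 at 1.5-fold or 3-fold. The count lower (747) became 1158 with equal medians, 1200 and 465 with the floors, and 1532 or 314 at those thresholds. With a floor at the 25th percentile the higher genes outnumbered the lower ones. The other alternatives stayed within 1.5 times of both counts. The sign of the list median turned under at least 1 scaling in 32 of 66 lists, 31 of them under equal medians. Among lists with a median of at least 0.25 either way, those that turned were genes of other organs, -0.14 with the high floor, and, with equal medians, MAP kinase phosphatases at -0.032, mitochondrial ribosomal proteins at -0.036 and DNA methylation, sirtuin and Hdac genes at -0.029. Named genes that reversed under the mean of all probe sets were Ddit3 (0.37), Hspa9 (-0.22), Mgst3 (0.33), Mr1 (-0.059), Slc30a1 (0.038) and Vegfa (-0.22), and Wipi1 reversed (0.52) when shared probe sets were left out. The cause was not tested. Signals near the floor set the limit of what could be compared: 7.84% of genes between the floor and the 75th percentile were beyond 2-fold, and 13.2% of the brightest.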
